A study of Oryza sativa Japonica Group with 31 samples.

Results

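RNA chaperones and related RNA-remodelling proteins of rice were described by their transcript levels in cold-treated and control leaf. The set holds 6 loci of the 55801 in the expression table, chosen by identifier and protein family with no threshold on their values: the cold shock domain proteins CSP1 (LOC_Os02g02870) and CSP2 (LOC_Os08g03520), the glycine-rich RNA-binding proteins LOC_Os12g43600 and LOC_Os03g46770, and the DEAD-box RNA helicases RH42 (LOC_Os08g06344) and TOGR1 (LOC_Os03g46610). The members were, however, chosen with earlier results of these data known. All 6 were listed above 0 in both treatments. All 6 also passed the filter on low values, which asked that cold and control average 1 FPKM or more. In all, 20876 loci passed it. By their identifiers the 6 loci lie on 4 chromosomes, with CSP1 on chromosome 2, LOC_Os03g46770 and TOGR1 on chromosome 3, CSP2 and RH42 on chromosome 8 and LOC_Os12g43600 on chromosome 12. The names and families are those given with the list of members, since the table does not pair identifiers with gene names. Of the names CSP1, CSP2, RH42 and TOGR1, the RefSeq genes of assembly ASM3414082v1 hold TOGR1 alone, which lies on chromosome 3 there too. The glycine-rich loci had no gene name to look up.

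The material was leaf of Nipponbare, a japonica rice cultivar, and the labels name no transgene or mutation. Cold-treated seedlings were moved to 4 °C on day 13 and held there for 24 h. Control seedlings stayed in the greenhouse at day and night temperatures of 28 °C and 22 °C, under light for 12 h of each day. Seeds of both treatments had been germinated in the dark for 3 days and raised in liquid medium, and the light given during the cold is not stated in the labels. Of 31 libraries in the series, 4 are RNA-seq libraries, 2 cold and 2 control. Their values came as 1 column per treatment, in FPKM, a fragment count scaled by the length of the locus and the size of the library. How the libraries of a treatment were combined, if at all, is not stated. Each value below is therefore the authors' value for a treatment, with no replicate error, and no test or p-value is given. Sequencing depth is unknown. The summed FPKM was 554475 in cold and 584870 in control. Leaf markers were not checked here, and the table gives identifiers without gene names.

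RNA strands fold on themselves more stably as temperature drops, and misfolded RNA can stall splicing, ribosome assembly and translation. RNA chaperones loosen such structures without using ATP: bacteria answer cold shock with small cold shock proteins of this kind, and plants have proteins with the same domain joined to glycine-rich stretches and zinc fingers. Glycine-rich RNA-binding proteins pair an RNA recognition motif with a glycine-rich tail, and several of them are known in Arabidopsis as cold-induced RNA chaperones. DEAD-box helicases use ATP to open short RNA duplexes and to remodel RNA-protein complexes.

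The comparison of cold with control asks how much transcript of each of these loci the leaf held after the cold. LOC_Os12g43600 and RH42 were listed nearly 6-fold higher in cold and LOC_Os03g46770 a little over 2-fold higher, while CSP1, CSP2 and TOGR1 differed by less than 2-fold. Fold changes, unless called a ratio of FPKM, are differences of log2(FPKM + 1), which understate the change of weakly expressed loci, and a locus past the 2-fold limit on that scale is called higher or lower. By this limit 3 of the 6 loci were higher in cold, where 12.5% of the 20876 loci were, and 0 of the 6 were lower, where 19.2% of the loci were. Past 4-fold, 2 of the 6 were higher and 0 lower, beside 3.86% and 2.15% of all loci. The background depended on the scale between the columns: 39.5% of the loci past 2-fold were higher as deposited, 62.2% with median-of-ratios scaling and 51.1% with quantile normalization, while the members past the limit were the same 3 each time. The median log2 fold change of the 6 was 0.63, and that of all 20876 loci was −0.27. With so few loci, and no replicates, these counts describe the members alone. The members were chosen with earlier results of these data known, so the counts are no test of their families. In bulk leaf, more cells of a type that holds a transcript and more transcript per cell cannot be told apart.

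**Figure D1:**
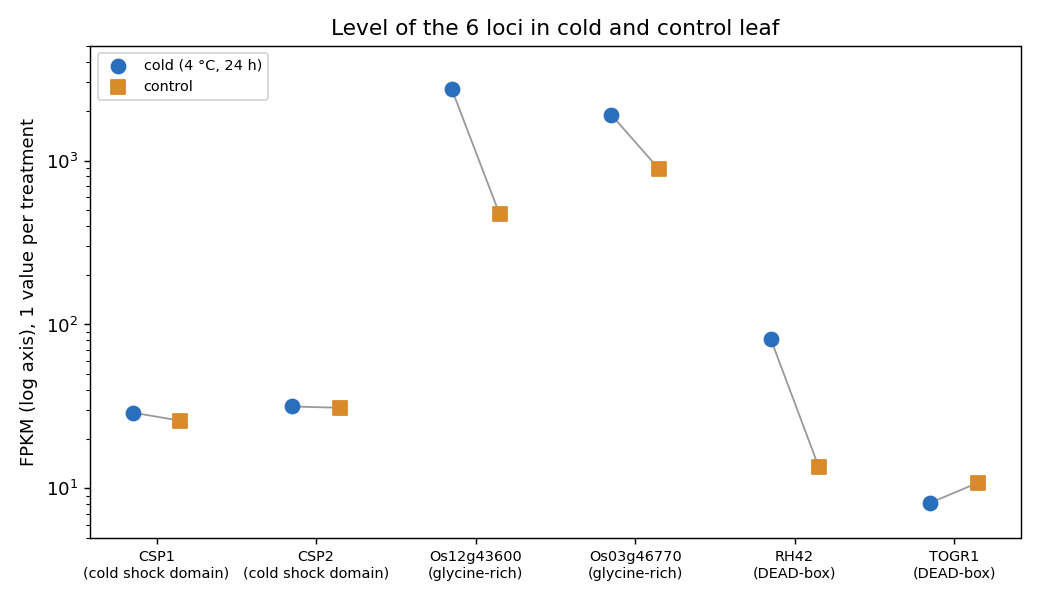
FPKM on a log axis for each of the 6 loci, with the cold value (circle) left of the control value (square), 1 value per treatment and no error bars because the table holds no replicates. The glycine-rich loci lie far above the rest in both treatments, and RH42 lies above CSP1 and CSP2 in cold but below them in control.

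The cold shock domain proteins were moderately expressed and nearly level between treatments. CSP1 and CSP2 are the rice proteins that share their nucleic acid-binding domain with the bacterial cold shock proteins, and both are known to restore growth at low temperature to an Escherichia coli strain that lacks several of its own. CSP1 was listed at 29.0 FPKM in cold and 25.9 FPKM in control, a ratio of 1.12. CSP2 was listed at 31.6 FPKM in cold and 31.0 FPKM in control, a ratio of 1.02. On the log2 scale these were differences of 0.16 and 0.03. As deposited, only 2.02% of the 20876 loci had a smaller absolute fold change than CSP2, and 12.1% had a smaller one than CSP1. These shares measure distance from 0 and were not recomputed under other scalings. Relative to the median locus, CSP1 lay at 0.43 and CSP2 at 0.30. Because the median locus was listed lower in cold, a level value still put CSP1 above 67.1% and CSP2 above 62.3% of loci in fold change. Together the pair held 60.6 FPKM in cold and 56.9 FPKM in control. CSP2 exceeded CSP1 in both treatments, by a factor of 1.09 in cold and 1.20 in control, and without replicates this order cannot be set against a spread. In level, CSP1 stood above 80.8% of the loci in cold and 78.7% in control, and CSP2 above 82.4% in cold and 82.7% in control.

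The sign of CSP2 depended on how the columns were scaled. Quantile normalization, which gives both columns the same distribution, put its log2 fold change at −0.02, while median-of-ratios scaling, which centres the ratios of all loci above 0 in both columns, put it at 0.36. CSP1 stayed above 0 under each scaling and pseudocount tried, between 0.14 and 0.49. Neither locus passed the 2-fold limit under any of them.

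The glycine-rich RNA-binding proteins were the abundant members. LOC_Os12g43600 was listed at 2730 FPKM in cold and 472 FPKM in control, a ratio of 5.79 and a log2 fold change of 2.53. LOC_Os03g46770 was listed at 1902 FPKM in cold and 885 FPKM in control, a ratio of 2.15 and a log2 fold change of 1.10. Both were higher in cold, and the pair held 94.3% of the members' summed FPKM already in control. Reads of near-identical copies within this gene family could be split or shared between loci, and the sources do not say how the counting treated them.

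Among all 55801 loci, LOC_Os12g43600 had the 8th highest level in cold and ranked 114 in control. LOC_Os03g46770 ranked 14 in cold and 52 in control. Of the 10 loci with the highest cold values, 3 lay outside the control's top 100, and LOC_Os12g43600 was among these 3. The gain of 2259 FPKM at LOC_Os12g43600 was the 4th largest of any locus, and the gain of 1016 FPKM at LOC_Os03g46770 the 9th largest. Their share of the column's summed FPKM was 0.492% in cold and 0.0806% in control for LOC_Os12g43600, and 0.343% in cold and 0.151% in control for LOC_Os03g46770. For the 38 loci that averaged 1000 FPKM or more, the median log2 fold change was −0.77, with 9 higher and 13 lower in cold. Within those 38, LOC_Os12g43600 had the 3rd highest fold change and LOC_Os03g46770 the 9th. Both loci were below 1000 FPKM in control, at 472 and 885 FPKM, and entered this class through their cold values. Their ranks in it are therefore partly set by how the class was drawn.

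The order of the pair turned over. LOC_Os12g43600 was listed at 1.44 times LOC_Os03g46770 in cold and at 0.533 times in control. This ratio changed by a factor of 2.70, a quantity that any single scale factor between the columns leaves as it is. Summed, the pair held 4632 FPKM in cold and 1357 FPKM in control, a ratio of 3.41. The call of LOC_Os03g46770 stood close to the limit: a shift of the cold column by −0.10 on the log2 scale would bring it to 2-fold. The scalings tried all shifted it upward, to at most 1.45, and LOC_Os12g43600 stayed between 2.52 and 2.88 under each scaling and pseudocount.

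**Figure D2:**
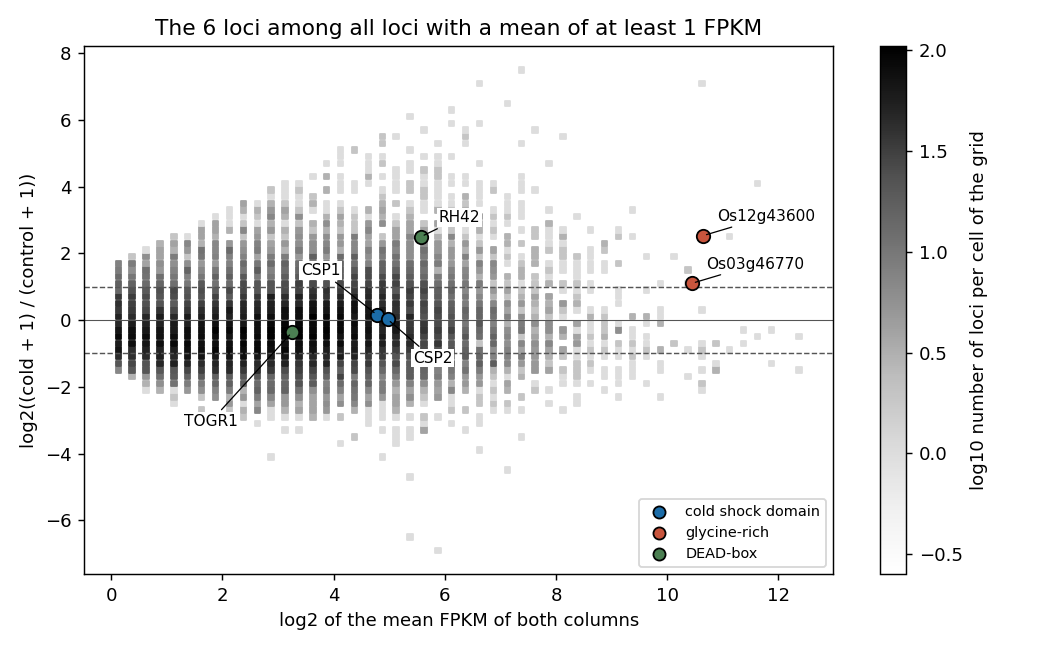
Log2 fold change of cold over control against the log2 mean FPKM, with the 20876 loci as a grey density grid and the 6 members as coloured points (blue, cold shock domain; red, glycine-rich; green, DEAD-box). Dashed lines mark the 2-fold limits. LOC_Os12g43600 at 2.53 and LOC_Os03g46770 at 1.10 lie at the abundant end, and RH42 at 2.50 lies above most loci of a like mean FPKM.

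The DEAD-box helicases had the fold changes furthest apart of the 3 pairs, 2.87 on the log2 scale. RH42 is known in rice as a helicase needed for correct splicing of pre-mRNA at low temperature. It was listed at 81.4 FPKM in cold and 13.6 FPKM in control, a ratio of 5.997, the highest of the 6 loci, and a log2 fold change of 2.50. RH42 ranked 1133 of 55801 loci in cold and 8099 in control, and stood above 94.6% of the filtered loci in cold against 61.2% in control. Its fold change exceeded that of 97.9% of the 20876 loci. It was the 137th highest of the 3107 loci with a mean of 30 to 100 FPKM, of which 20.95% were higher past 2-fold. RH42 was below 30 FPKM in control and entered this class through its cold value, so its rank there is partly set by how the class was drawn. CSP2 fell in the same class and ranked 1488 in it.

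TOGR1 is known in rice as a nucleolar helicase that keeps ribosomal RNA processing going at high temperature. It was the weakest of the 6 loci in both treatments, at 8.18 FPKM in cold and 10.8 FPKM in control. Its level in control was 1.33 times that in cold, a log2 fold change of −0.37, inside the 2-fold limit and the only negative value among the members. This lay close to the median of all loci, −0.27, and at the median of the 6536 loci with a mean of 3 to 10 FPKM, also −0.37, where it exceeded 50.1% of them. Median-of-ratios scaling put TOGR1 at −0.05, and it stayed below 0 under each setting tried.

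RH42 stood at 9.95 times TOGR1 in cold and 1.25 times in control, so that the ratio between the helicases changed 7.95-fold, again free of any scale factor between the columns. Summed, they held 89.6 FPKM in cold and 24.4 FPKM in control, a ratio of 3.67 that rests on RH42. RH42 also changed place against the cold shock domain proteins, which were nearly level: it was listed at 2.57 times CSP2 and 2.81 times CSP1 in cold, whereas in control CSP2 stood at 2.29 times and CSP1 at 1.91 times RH42. By level per length, the order in cold was LOC_Os12g43600, LOC_Os03g46770, RH42, CSP2, CSP1 and TOGR1, and the order in control was LOC_Os03g46770, LOC_Os12g43600, CSP2, CSP1, RH42 and TOGR1. The highest member stood at 334 times the lowest in cold and at 81.7 times in control. All 6 together held 0.863% of the summed FPKM in cold and 0.246% in control.

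**Figure D3:**
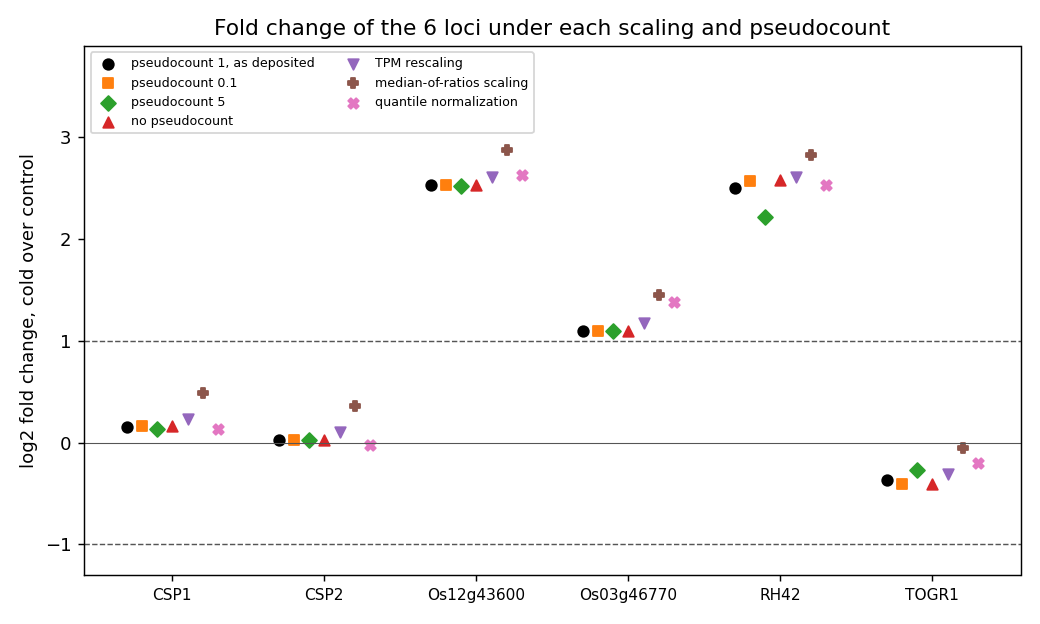
Log2 fold change of cold over control for each of the 6 loci under 7 settings, with dashed lines at the 2-fold limits. LOC_Os12g43600, LOC_Os03g46770 and RH42 lie above the upper limit in every setting drawn, while CSP2 crosses 0 under quantile normalization.

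Of the 12 loci next to a member in the order of the identifiers, 6 averaged at least 1 FPKM, and all 6 of these were listed lower in cold, with log2 fold changes between −1.37 and −0.67 and 1 of them past the 2-fold limit. Of all 20876 loci, 61.2% were listed lower in cold and 19.2% were past that limit. The median log2 fold change was −0.84 for the 6 neighbours and −0.27 for all loci. Whether so few neighbours differ from the rest was not tested. RH42 lay between a locus listed at 6.05 FPKM in cold and 10.2 FPKM in control and one listed at 6.31 FPKM in cold and 17.9 FPKM in control. LOC_Os12g43600 had a neighbour at 0.820 FPKM in cold and 2.41 FPKM in control, and one listed at 0 in both. LOC_Os03g46770 stood between a locus listed at 0 in both treatments and one at 0.285 FPKM in cold and 0.0885 FPKM in control. These neighbours held far less transcript than the glycine-rich loci themselves. CSP1 lay between a locus at 16.4 FPKM in cold and 31.1 FPKM in control and one at 1.56 FPKM in cold and 3.43 FPKM in control. CSP2 had no neighbour above 0.0435 FPKM. TOGR1 had a neighbour at 1.38 FPKM in cold and 3.06 FPKM in control, and the other was listed at 0. TOGR1 and LOC_Os03g46770, both on chromosome 3, had 13 loci listed between them, and their fold changes had opposite signs. The strand and overlap of these loci are not known here.

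**Figure D4:**
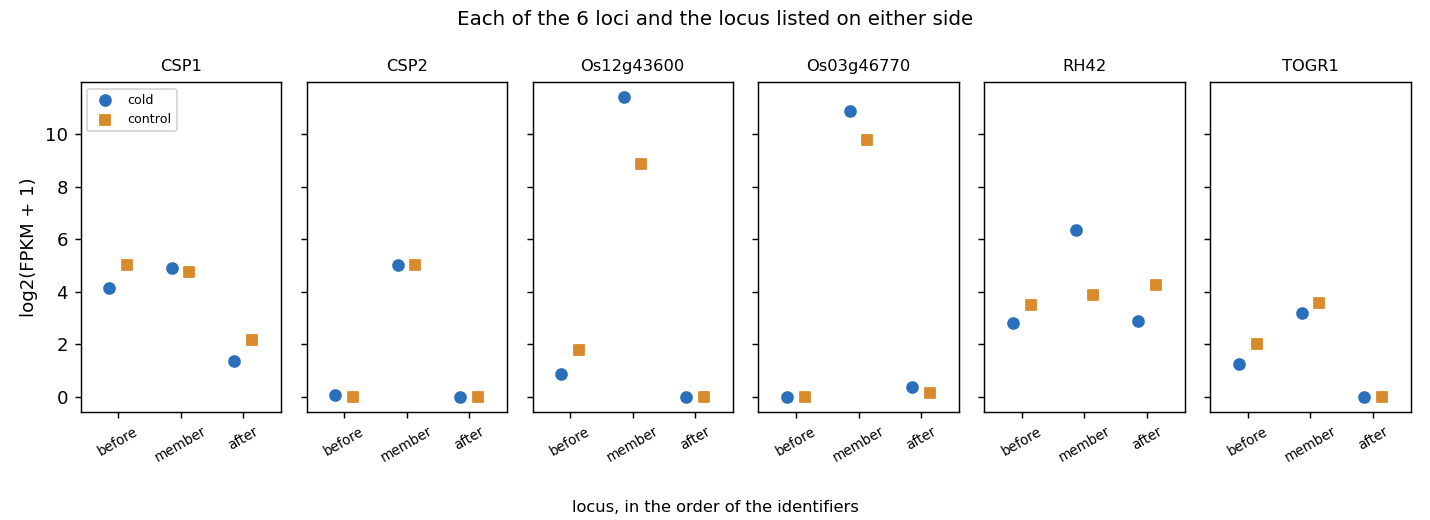
Log2(FPKM + 1) of each of the 6 loci and of the locus listed before and after it in the order of the identifiers, with cold (circles) left of control (squares). For LOC_Os12g43600, LOC_Os03g46770 and RH42 the cold value lies above the control value at the member, while both neighbours of RH42 lie lower in cold, at log2 fold changes of −0.67 and −1.37.

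Loci with a like pair of values were counted for each member. Likeness was taken as the distance between loci in log2(FPKM + 1) of cold and control, over the 2 columns. Within a distance of 0.1 there were 73 other loci for TOGR1, 44 for CSP1 and 32 for CSP2, but 1 for RH42 and 0 for either glycine-rich locus. Such counts also depend on how many loci share a level. Only 38 loci averaged 1000 FPKM or more, the class of the glycine-rich pair, against 6536 in the class of TOGR1. RH42 and CSP2 share a class of 3107 loci. The locus nearest to LOC_Os12g43600, the member with the highest log2 fold change, was LOC_Os01g21250 at a distance of 0.59, listed at 3498 FPKM in cold and 656 FPKM in control. The nearest to TOGR1, the member with the lowest, was LOC_Os04g46570 at a distance of 0.021, listed at 8.18 FPKM in cold and 10.7 FPKM in control.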

How the data were processed

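The authors deposited FPKM values for RNA-seq of cold and control leaf, 1 column per treatment. Per the submitters' processing notes, HISAT2 2.1.0 and Bowtie, Trimmomatic 0.39 and Trim Galore 0.4.3, featureCounts 1.6.4, SAMtools and FastQC served the assays of the series, with no step named. Not given in the sources used here are the build, the annotation, the use of strand and the treatment of reads that map to more than 1 place. Since FPKM is relative to library size, a few abundant transcripts can lower or raise the rest.

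Fold changes were computed as log2(FPKM + 1), cold minus control, over the 20876 loci that averaged 1 FPKM or more. No test was possible with 1 value per treatment. Pseudocounts of 0.1, 5 and none, rescaling to equal sums (TPM), median-of-ratios scaling, quantile normalization, no filter and a mean of at least 5 FPKM were tried. The rule for named loci took the 6 members, the loci beside them and the locus most like the member with the highest and with the lowest fold change. Of 55801 identifiers 1, no member, was found in the RefSeq table of 39387 genes, so no wider gene list was used, as at least 80% had been required. The members and this plan were chosen with earlier results of these data known. The calculations were tested on simulated data with planted 4-fold changes, at an assumed depth and with no biological spread. That checks the code and does not bear on the calls of the members. Python 3.11.15, numpy 2.4.6, pandas 2.3.3 and matplotlib 3.10.9 were used. The other 27 libraries were not used here.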

Additional observations from a re-analysis of the deposited data

How the results depend on the processing

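Of 181 values recomputed under 8 alternatives, 162 stayed within the limits set and 19 moved. The limits were 0.5 on the log2 scale or a change of sign for fold changes, 10 percentage points for percentiles and a factor of 1.5 for counts. LOC_Os12g43600, LOC_Os03g46770 and RH42 were past 2-fold under each pseudocount and scaling, and CSP1, CSP2 and TOGR1 under none of them. CSP2 alone changed sign, to −0.019 with quantile normalization. RH42 ranged from 2.22 with a pseudocount of 5 to 2.83 with median-of-ratios scaling. Which member had the highest log2 fold change depended on the setting. RH42 stood above LOC_Os12g43600 with a pseudocount of 0.1 (2.58 against 2.53), with none and with TPM rescaling, and below it in the other settings. The filters do not touch the members' folds, and all 14 percentiles that moved did so under them, as the loci compared change. Past 2-fold, 2617 of all loci lay higher and 4003 lower (39.5% higher), against 1663 and 1618 (50.7% higher) with a pseudocount of 5, 3766 and 2285 (62.2% higher) with median-of-ratios scaling, 3097 and 2958 (51.1% higher) with quantile normalization, and 2605 lower with a mean of at least 5 FPKM. The median log2 fold change of all loci moved by 0.30 with median-of-ratios scaling and by 0.17 with quantile normalization. Which scale is right was not tested. No paired analysis was possible because the replicates of a treatment are not given apart in its single column. Depth is unknown, so no counting error can be given, which matters most for TOGR1, the weakest member.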
